A study of Homo sapiens with 11 samples.

Results

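A-549, a line derived from lung cancer, was compared with MV3, a line derived from amelanotic (unpigmented) melanoma, by small RNA sequencing of the miRNAs in 2 libraries of each line. These are 4 of the 11 libraries of the series, which profiled parental cells of 6 tumour lines (A-549, MV3, ES-2, PANC-1, BE(2)-C and Hep-G2) to relate miRNAs to the mRNAs that the RNA-binding protein IGF2BP1 associates with. Both lines are established human cell lines, listed as parental, with no siRNA and no drug, grown in DMEM with 10% FBS and harvested 48 hours after seeding. Their libraries were made from 50 ng of total RNA with the same small RNA kit. The methods of the study call the 2 libraries of a line biological replicates without saying whether they came from separate cultures, and the tests measure the spread between these libraries. Each line stands for its tumour type by 1 line only, so lung cancer and melanoma as such are not compared. The comparison took the library columns of the 2 lines, summed the rows that share a mature miRNA name, and scaled each library to a total of 1000000 miRNA reads (counts on this scale are given as CPM). It kept the miRNAs with a mean of at least 10 CPM in either line, which left 386 of 2588. Of these 242 reached the limit in both lines, 64 in A-549 only and 80 in MV3 only. A miRNA of the last 2 groups lay higher in the line through which it was kept by how it entered, so counts of such miRNAs are descriptions. The 3 miRNAs nearest above this limit had a higher-line mean of 10.0, 10.2 and 10.2 CPM, and the 3 nearest below had 9.91, 9.86 and 9.75 CPM. The libraries held 2670030 and 2060669 miRNA reads in A-549 and 1173902 and 1549279 in MV3, so that 3 reads correspond to between 1.12 and 2.56 CPM.

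A miRNA is cut from a hairpin in a primary transcript, and either the 5p or the 3p arm of the hairpin is loaded into an Argonaute protein. Bases 2 to 8, the seed, pair with target mRNAs, so miRNAs with one seed share much of their target range. Hairpins that lie close together are often cut from one transcript, and many lie within introns or exons of host genes, whose tissue pattern they can follow. miRNA profiles differ strongly between tissues of origin: the miR-200 family is typical of epithelium, miR-211 of pigment cells, and miR-199a of mesenchymal cells.

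The sequences on which the comparison turns are shown here with the seed in capitals, as RefSeq lists them for GRCh38.p14. The first set holds the most abundant miRNA of all 4 libraries, followed by miRNAs that were far higher in A-549. miR-192-5p and miR-215-5p share a seed, as do miR-200b-3p and miR-429, so these pairs are shown next to each other. From position 1 at the 5′ end, miR-215-5p differs from miR-192-5p by C1A and C20A.
miR-21-5p: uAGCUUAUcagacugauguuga
miR-224-5p: uCAAGUCAcuagugguuccguuuag
miR-452-5p: aACUGUUUgcagaggaaacuga
miR-34a-5p: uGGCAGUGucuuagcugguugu
miR-335-5p: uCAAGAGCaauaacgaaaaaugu
miR-493-5p: uUGUACAUgguaggcuuucauu
miR-127-3p: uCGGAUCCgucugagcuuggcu
miR-192-5p: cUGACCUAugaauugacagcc
miR-215-5p: aUGACCUAugaauugacagac
miR-200b-3p: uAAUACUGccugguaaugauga
miR-429: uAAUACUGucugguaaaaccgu

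The second set was higher in MV3, miR-99a-5p by less than the others. miR-199a-3p and miR-199b-3p are the same sequence, so reads cannot be told apart between them. miR-99a-5p differs from miR-100-5p only outside the seed (U16A, from miR-99a-5p to miR-100-5p), and miR-221-3p and miR-222-3p have a common seed.
miR-199a-3p: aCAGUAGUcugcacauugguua
miR-199b-3p: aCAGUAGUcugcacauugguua
miR-199a-5p: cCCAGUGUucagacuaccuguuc
miR-584-5p: uUAUGGUUugccugggacugag
miR-155-5p: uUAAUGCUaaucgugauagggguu
miR-105-5p: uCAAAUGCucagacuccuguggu
miR-767-5p: uGCACCAUgguugucugagcaug
miR-100-5p: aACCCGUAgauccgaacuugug
miR-99a-5p: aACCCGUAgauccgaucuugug
miR-221-3p: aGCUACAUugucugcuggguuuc
miR-222-3p: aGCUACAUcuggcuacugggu

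The third set shows pairs with a common seed whose members differed between the lines in opposite directions. miR-196b-5p differs from miR-196a-5p by A12C, and miR-23b-3p from miR-23a-3p by U19A and by its longer 3′ end.
miR-196a-5p: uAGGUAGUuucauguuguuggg
miR-196b-5p: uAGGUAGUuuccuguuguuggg
miR-23a-3p: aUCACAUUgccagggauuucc
miR-23b-3p: aUCACAUUgccagggauuaccac

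miR-21-5p, a broadly expressed miRNA that is raised in many carcinomas, dominated both lines. It made up 65.0% (95% Wilson interval 65.0 to 65.1) and 64.2% (64.1 to 64.2) of the miRNA reads of the A-549 libraries. In MV3 it made up 33.2% (33.1 to 33.2) and 32.1% (32.0 to 32.2). These intervals cover counting error only, and the lines differed by far more than the libraries of either line (log2 difference 0.99 ± 0.07 (SE), limma adjusted p = 4.68e-07). Since CPM values of a library sum to a fixed total, the large miR-21-5p share lowers every other CPM value of A-549, and the median log2 difference (A-549 minus MV3) of the 386 miRNAs was -0.79. With TMM factors, which scale the libraries by the bulk of their miRNAs, the median was 0.02. Differences are therefore given on the CPM scale, as log2(CPM + 1), and a miRNA is called higher in a line only where limma's adjusted p was below 0.05 on both the CPM and the TMM scale, with the same direction.

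Of the 386 miRNAs, 105 (27.2%) were higher in A-549 and 122 (31.6%) were higher in MV3 on both scales. On CPM alone 105 were higher in A-549 and 196 (50.8%) in MV3, and with TMM 140 (36.3%) and 122. The libraries of the lines did not overlap on CPM for 119 miRNAs (30.8%) that lay higher in A-549 and for 231 (59.8%) that lay higher in MV3. The 105 calls for A-549 were the same on both scales, whereas 71 miRNAs were higher in MV3 on CPM only and 32 higher in A-549 with TMM only. Another 3 were called in opposite directions on the 2 scales, and 53 passed on neither. Changes of more than 8-fold on the CPM scale were found for 65 of the miRNAs higher in A-549 and for 32 of those higher in MV3. The imprinted region of chromosome 14, described below, held 47 of the 105 miRNAs higher in A-549 (44.8%). Their median log2 difference was 4.45, and most of these 47 are among the 65, so the 65 are not spread evenly over the genome. Of the 242 miRNAs that reached 10 CPM in both lines, 45 were higher in A-549 and 72 in MV3 on both scales.

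**Figure D1:**
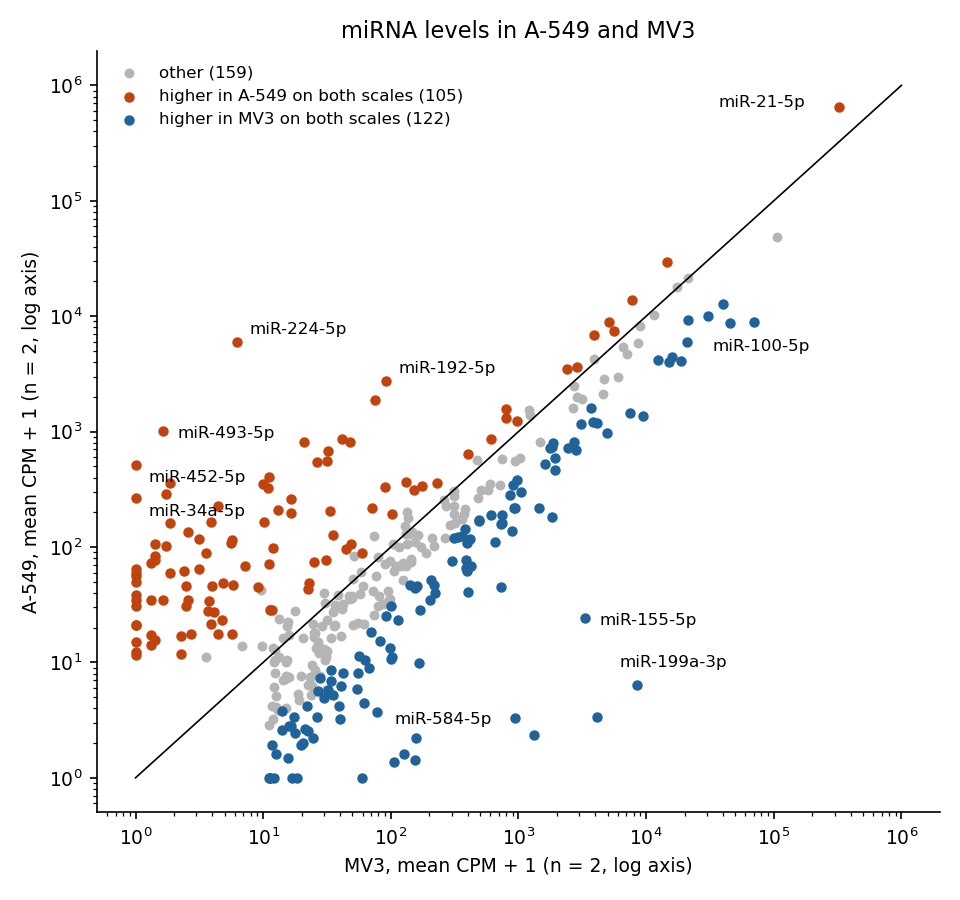
Mean CPM + 1 of the 386 miRNAs in MV3 (x axis) and A-549 (y axis), 2 libraries per line, both axes logarithmic, with the line of equal CPM. Orange points (105) were higher in A-549 and blue points (122) higher in MV3 on both the CPM and the TMM scale, grey points are the other 159. miR-21-5p lies at the far end of both axes, and many orange points lie at or near 0 CPM in MV3.

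The largest difference towards A-549 was that of miR-224-5p, with 5782 and 6189.7 CPM in A-549 against 3.41 and 7.10 CPM in MV3 (log2 difference 9.97 ± 0.24 (SE), limma adjusted p = 2.23e-10). The libraries of the 2 lines lay 1139-fold apart in their means. miR-452-5p, cut from the neighbouring hairpin, had 491 and 537 CPM in A-549 and 0 reads in either MV3 library, at least 466-fold higher when MV3 is set to 3 reads over both libraries. Both hairpins overlap exons of GABRE, a GABA-A receptor subunit gene, on the minus strand of chromosome X (GRCh38, chrX:151958578-151959712). The other arms followed. miR-224-3p had 34.8 and 24.3 CPM and miR-452-3p 65.5 and 52.4 CPM in A-549, with 0 reads of either in MV3. All 4 miRNAs of the pair of hairpins were higher in A-549 (27.2% of all tested). Each had reached 10 CPM in A-549 only, so its direction was set by how it entered.

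A second X-linked group lay 433 kb further along the chromosome and moved the other way. miR-105-5p and miR-767-5p are cut from hairpins in an intron of GABRA3, another GABA-A receptor subunit gene, also on the minus strand (chrX:152392219-152394492). miR-105-5p had 85.2 and 125 CPM in MV3 against 0.749 and 0 CPM in A-549, where it rested on 2 reads in all, so that pooled reads gave a ratio of 255-fold (exact counting interval 70.1 to 2119). miR-767-5p had 118 and 132 CPM in MV3 against 0.749 and 0.485 CPM in A-549, with 3 reads in A-549 and a pooled ratio of 199-fold (exact counting interval 67.4 to 968). The 3p arms of both were at 0 reads in A-549 and at 4.52 to 16.2 CPM in MV3, and all 4 miRNAs of this group were higher in MV3 (31.6% of all tested). Each had reached 10 CPM in MV3 only. The opposite directions of the GABRE and GABRA3 groups were thus set by how their members entered and are a description. Libraries did not overlap on CPM for either group, as for 30.8% (higher in A-549) and 59.8% (higher in MV3) of all tested.

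The X-linked cluster from miR-506 to miR-514, which is known from testis and from melanoma, gave no reads in any of the 4 libraries for its 20 listed miRNAs from miR-506-3p to miR-514b-3p. The neighbouring miR-888, miR-891a, miR-891b and miR-892a gave 2 and 30 reads in sum in the MV3 libraries and 0 in A-549. None of the 26 listed reached 10 CPM.

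The pigment cell miRNA miR-211, which lies in the melanocyte gene TRPM1, was also not detected: miR-211-5p and miR-211-3p had 0 of 2723181 reads in MV3 together, which allows up to 1.10 CPM. miR-204-5p, its seed relative, had 4 and 6 reads in A-549 and 2 and 2 in MV3. MV3 is described as amelanotic, so this marker of pigmented melanocytes does not check its origin. Of other miRNAs with a known role in melanoma, 16 of 17 were tested, 3 were higher in A-549 (27.2% of all tested) and 5 in MV3 (31.6%), which is near the shares over all miRNAs. miR-146a-5p, a feedback inhibitor of NF-κB signalling, had 599 and 703 CPM in MV3 against 107 and 111 CPM in A-549. miR-193b-3p, a brake on cyclin D1, had 148 and 105 CPM in A-549 and 26.4 and 42.0 CPM in MV3, and its call on CPM was lost without A-549 replicate 1 (limma adjusted p = 0.0564).

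miR-34a-5p, a direct target of p53, had 265 and 268 CPM in A-549 and 0 reads in both MV3 libraries (at least 242-fold, log2 difference 8.06 ± 0.61 (SE), limma adjusted p = 8.48e-07). miR-34a-5p had reached 10 CPM in A-549 only, so its direction was set by how it entered. Its hairpin lies in an exon of the non-coding MIR34AHG on chromosome 1 (chr1:9151668-9151777). In ES-2, the ovarian line that shared the preparation, miR-34a-5p was also close to 0, at 3.61 and 0.436 CPM.

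The imprinted region of chromosome 14, whose miRNAs are made from the maternal chromosome in a series of non-coding transcripts (MEG8 and its neighbours), separated the lines as a block. From MIR493 to MIR656 (chr14:100869060-101066801, 198 kb, plus strand) 47 miRNAs of 38 hairpins were among the 386, and all 47 were higher in A-549 on both scales (27.2% of all tested). Of the 47, 39 had reached the limit of 10 CPM in A-549 only, so their direction was set by how they entered. The other 8 had reached it in both lines, and these 8 were also higher in A-549, against 45 of all 242 such miRNAs. The log2 differences of the 47 ran from 2.56 to 9.38 with a median of 4.45, against -0.79 for all 386, and with TMM the median was 5.24.

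miR-493-5p, at the start of the region, had 957 and 1055 CPM in A-549 against 0 and 1.29 CPM in MV3, where it rested on 2 reads. miR-127-3p had 349 and 369.8 CPM in A-549 against 1.70 and 0 CPM in MV3, and miR-370-3p 105 and 103 CPM in A-549 against 0.852 and 0 CPM in MV3. In the second, denser group of hairpins, miR-381-3p had 115 and 84.9 CPM in A-549 against 0.852 and 0.645 CPM in MV3 and miR-494-3p 421 and 385 CPM in A-549 against 16.2 and 3.87 CPM in MV3. The most abundant members of that group kept a measurable level in MV3: miR-369-3p had 838 and 883 CPM in A-549 against 46.0 and 34.2 CPM in MV3 (log2 difference 4.40 ± 0.29 (SE), limma adjusted p = 3.17e-07), and miR-409-3p had 760.3 and 851 CPM in A-549 against 67.3 and 26.5 CPM in MV3. miR-379-5p, which gives the group its name, stood at 536 and 557 CPM in A-549 against 17.0 and 33.6 CPM in MV3.

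Summed over the 47 miRNAs, the A-549 libraries held 8658 and 8514 CPM and the MV3 libraries 303 and 292 CPM. The A-549 libraries had reads of all 47 and each MV3 library of 33. 7 of the 47 had no read in either MV3 library. The ES-2 libraries held 6.61 and 79.7 CPM, those of Hep-G2 26.0 and 22.4 CPM, and the PANC-1 library 32196 CPM. The sum was highest in BE(2)-C, a neuroblastoma line harvested 24 hours after seeding, at 444716 and 430387 CPM. The libraries of both BE(2)-C and Hep-G2 came from another provider. The 2 ES-2 libraries differed in this region, with reads of 4 and of 36 of the 47. Without ES-2 all 47 remained higher in A-549 on CPM, without A-549 replicate 1 40 did and without replicate 2 43, among the lost being miR-409-3p and miR-543 in both cases.

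**Figure D2:**
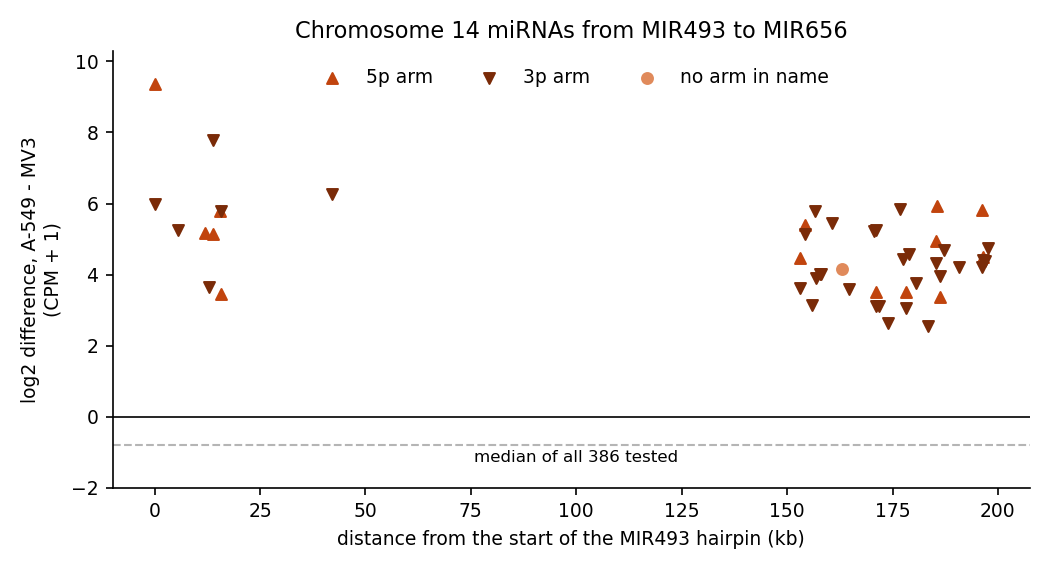
log2 difference (A-549 minus MV3, on log2(CPM + 1)) of the 47 chromosome 14 miRNAs against the distance of their hairpin from the start of MIR493 in kb; triangles mark the arms and the dashed line the median of all 386 tested (-0.79). All points lie between 2.56 and 9.38, in a first group at the start of the region, a single hairpin further on, and a second, denser group at its end.

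miR-335, which is cut from an intron of the imprinted gene MEST on chromosome 7 (chr7:130496111-130496204), was also higher in A-549 than in MV3. miR-335-5p had 148 and 173 CPM in A-549 against 1.70 and 0 CPM in MV3, and miR-335-3p had 266 and 311 CPM in A-549 against 0.852 and 0.645 CPM in MV3. Both arms rested on 2 reads in MV3, and pooled reads gave ratios of 216-fold (exact counting interval 59.6 to 1788) and 389-fold (exact counting interval 108 to 3216). Both had reached 10 CPM in A-549 only, so their direction was set by how they entered. The PANC-1 library lay above A-549, with 734 CPM of miR-335-5p and 1059 CPM of miR-335-3p. ES-2 had 3.01 and 2.18 CPM of miR-335-5p and 41.5 and 37.0 CPM of miR-335-3p.

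miRNAs of the miR-200 family from chromosome 1 were higher in A-549. Of 11 listed members of the miR-200 family with miR-205 and miR-203a, 6 were tested and these 6 were higher in A-549 (27.2% of all tested). Of them 4 had reached 10 CPM in A-549 only, so their direction was set by how they entered, and the 5 listed members that were not tested lay below 10 CPM in both lines. The 2 that reached it in both lines were miR-200b-3p and miR-200c-3p. miR-200b-3p, which represses the mesenchymal factors ZEB1 and ZEB2, had 794 and 833 CPM in A-549 against 14.5 and 25.2 CPM in MV3 (log2 difference 5.34 ± 0.35 (SE), limma adjusted p = 3.17e-07). miR-200a-3p and miR-429, from the same cluster on chromosome 1 (chr1:1167104-1169087), had 71.9 and 80.6 CPM in A-549 against 0.852 and 0 CPM in MV3 and 76.8 and 49.0 CPM in A-549 against 4.26 and 0 CPM in MV3. In the second cluster of the family, on chromosome 12, miR-141-3p had 1 read in all 4 libraries together. miR-200c-3p had 34.1 and 61.6 CPM in A-549 against 14.5 and 29.0 CPM in MV3. In A-549 it lay far below miR-200b-3p but near miR-429. The miR-200c-3p call was not stable, being lost on CPM without A-549 replicate 1 (limma adjusted p = 0.0716) or replicate 2 (0.314) and without MV3 replicate 1 (0.28). The epithelial markers miR-205-5p and miR-203a-3p had 4 and 8 reads in A-549. Of the epithelial list only miR-200b-3p lay above 100 CPM in A-549.

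For miR-192, miR-194 and miR-215, which the hepatocyte nuclear factors drive in gut and liver, 4 of 4 tested were higher in A-549 (27.2% of all tested). Of these 1, miR-215-5p, had reached 10 CPM in A-549 only. miR-192-5p had 2874 and 2585 CPM in A-549 against 101 and 79.4 CPM in MV3 (log2 difference 4.91 ± 0.16 (SE), limma adjusted p = 1.82e-09), and miR-194-5p had 1883 and 1899 CPM in A-549 against 72.4 and 76.8 CPM in MV3. Their hairpins lie next to each other in MIR194-2HG on chromosome 11 (chr11:64891137-64891439). miR-215-5p, the seed relative of miR-192-5p from chromosome 1, was much lower, with 23.2 and 29.1 CPM in A-549 against 1.70 and 4.52 CPM in MV3, and its call was lost without A-549 replicate 1 (limma adjusted p = 0.063) or replicate 2 (0.0795). The liver-specific miR-122-5p went the other way at a low level (45.1 and 31.0 CPM in MV3, 4.49 and 1.94 CPM in A-549). It was uneven across the series, at 823 and 5.96 CPM in the 2 BE(2)-C libraries, and its call was lost without either A-549 library (limma adjusted p = 0.0684 and 0.126).

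Several abundant miRNAs were moderately higher in A-549. miR-30a-5p, the third most abundant miRNA of A-549, had 30176 and 28345 CPM in A-549 against 14722 and 14463 CPM in MV3 (log2 difference 1.00 ± 0.07 (SE), limma adjusted p = 3.82e-07). miR-27b-3p, from the chromosome 9 cluster with miR-23b, had 14411 and 13055 CPM in A-549 against 7754 and 7861 CPM in MV3, and miR-31-5p had 9286 and 8418 CPM in A-549 against 4698 and 5536 CPM in MV3. With all 11 libraries in the fit, none of these 3 was called on CPM (limma adjusted p = 0.0716 for miR-30a-5p, 0.095 for miR-27b-3p and 0.253 for miR-31-5p). On the X chromosome the miR-424 and miR-450 cluster was higher, with 4 of the 6 miRNAs matched to RefSeq called (27.2% of all tested), among them miR-450b-5p at 353 and 381 CPM in A-549 against 119 and 142 CPM in MV3; its call on CPM was lost without A-549 replicate 2 (limma adjusted p = 0.0506). miR-126-3p, which is best known from endothelial cells and lies in EGFL7, had 199 and 209 CPM in A-549 against 23.9 and 41.3 CPM in MV3.

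**Figure D3:**
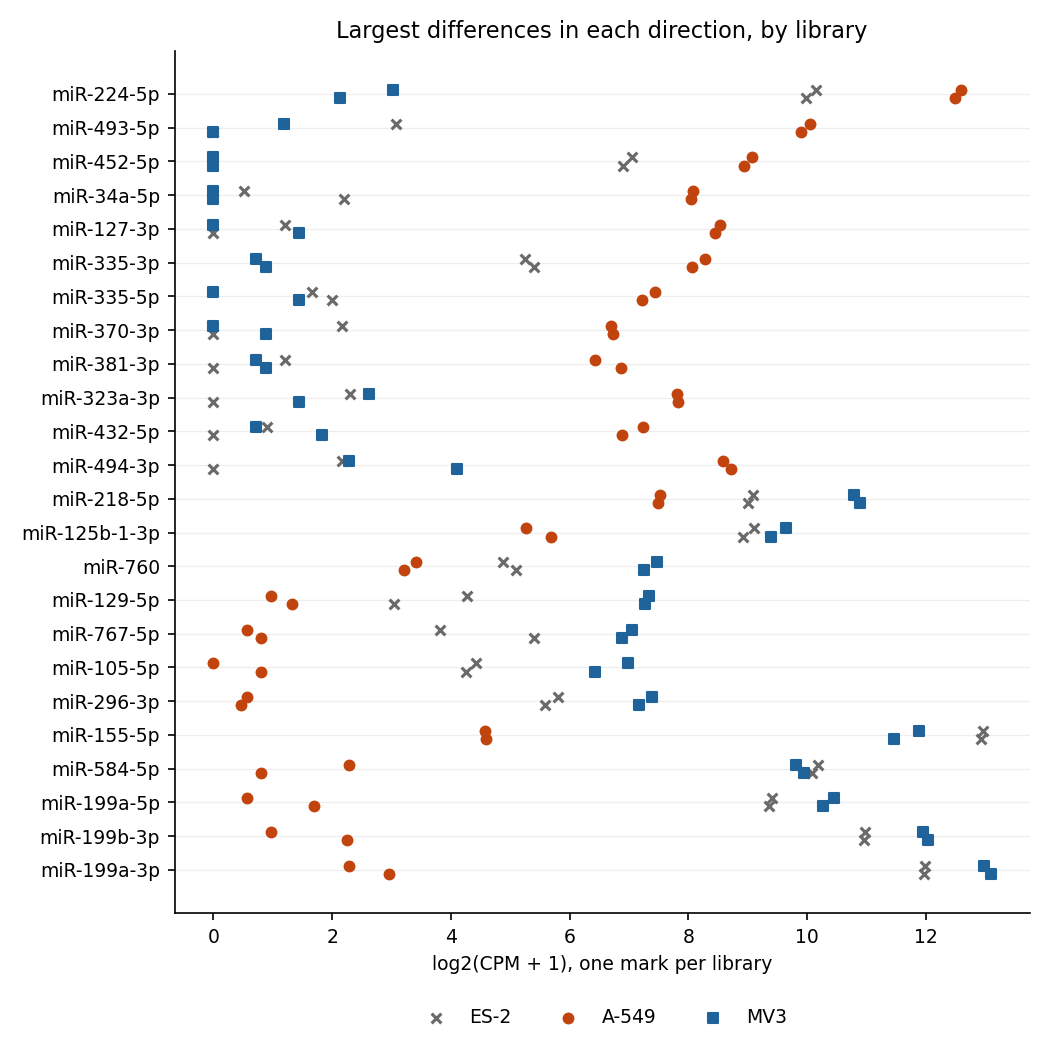
log2(CPM + 1) of the 12 miRNAs with the largest difference in each direction, 1 mark per library: A-549 in orange circles, MV3 in blue squares and ES-2, which adds to the estimate of the spread and to the TMM factors, in grey crosses. Only miRNAs without overlap between A-549 and MV3 were eligible, so these marks lie apart in every row by the choice of miRNAs, and in the lower 12 rows ES-2 lies above A-549 throughout.

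The largest difference towards MV3 was that of miR-199a. miR-199a-3p had 8771 and 8078 CPM in MV3 against 6.74 and 3.88 CPM in A-549 (log2 difference -10.42 ± 0.18 (SE), limma adjusted p = 3.39e-11), and the identical miR-199b-3p had 4224 and 3977 CPM in MV3 against 3.75 and 0.971 CPM in A-549. These 2 entries share their reads, so they are 1 measurement split over 2 names. miR-199a-5p, the other arm, had 1234 and 1409 CPM in MV3 against 2.25 and 0.485 CPM in A-549. miR-199b-5p had 0 reads in all 4 libraries, so the only arm that would mark the miR-199b hairpin on chromosome 9 was not detected in either line. miR-214-3p, whose hairpin lies 5.63 kb from that of miR-199a-2 in DNM3OS on chromosome 1 (chr1:172138798-172144644), was much lower, with 29.0 and 49.1 CPM in MV3 against 1.498 and 2.91 CPM in A-549. Of the 7 tested members of the mesenchymal list with miR-143 and miR-145, these 4, which had reached 10 CPM in MV3 only, were higher in MV3 (31.6% of all tested) and none was higher in A-549 on both scales, although 2 of the other 3 were higher in A-549 with TMM.

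miR-584-5p, from an intron of SH3TC2 on chromosome 5 (chr5:149062313-149062409), had 986 and 896 CPM in MV3 against 0.749 and 3.88 CPM in A-549 (log2 difference -8.33 ± 0.38 (SE), limma adjusted p = 1.63e-08). miR-584-5p had reached 10 CPM in MV3 only, so its direction was set by how it entered. miR-155-5p, an immune and oncogenic miRNA made from the non-coding MIR155HG on chromosome 21, had 2832 and 3789 CPM in MV3 against 23.2 and 22.8 CPM in A-549 (log2 difference -7.09 ± 0.13 (SE), limma adjusted p = 3.39e-11). The blood cell marker miR-142 was at 0 reads in all 4 libraries for both arms. In ES-2, miR-155-5p had 7812 and 8043 CPM and miR-584-5p 1091 and 1167 CPM, so A-549 was the lowest of A-549, MV3 and ES-2 for both. Elsewhere in the series miR-155-5p was uneven. It was low in Hep-G2 (0.337 and 0 CPM) and BE(2)-C (17.7 and 24.8 CPM), whereas the PANC-1 library held 864 CPM.

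miR-296-3p, from an imprinted part of chromosome 20, had 142 and 167 CPM in MV3 against 0.375 and 0.485 CPM in A-549, where it rested on 2 reads (pooled ratio 370.02-fold (exact counting interval 102 to 3065)). miR-129-5p, a neuronal miRNA, had 153 and 161 CPM in MV3 against 1.498 and 0.971 CPM in A-549. miR-760 had 152 and 176 CPM in MV3 against 8.24 and 9.71 CPM in A-549. For each of them both MV3 libraries lay above both A-549 libraries by more than 10-fold. They were chosen among miRNAs without overlap and had reached 10 CPM in MV3 only, so this separation is a description. Over all tested, 59.8% had libraries that did not overlap and lay higher in MV3.

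miR-218-5p, which is cut from introns of SLIT2 and SLIT3 and is abundant in motor neurons, had 1912 and 1771 CPM in MV3 against 178 and 183 CPM in A-549. The neuronal list was not of one direction: miR-128-3p had 2519 and 2340.4 CPM in MV3 against 755 and 689 CPM in A-549, whereas miR-9-5p had 209 and 453 CPM in A-549 against 124 and 52.9 CPM in MV3. The miR-9-5p call on CPM was lost without A-549 replicate 2 (limma adjusted p = 0.134), and the brain miRNA miR-124-3p had 1 read in all. Of 5 tested, 3 were higher in MV3 (31.6% of all tested) and 2 in A-549 (27.2%).

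miR-100 and miR-125b, which share the host gene MIR100HG on chromosome 11, were among the most abundant miRNAs of MV3. miR-100-5p had 75284 and 64566 CPM in MV3 against 9069.6 and 8668 CPM in A-549 (log2 difference -2.97 ± 0.08 (SE), limma adjusted p = 5.32e-10), and miR-125b-5p, a regulator of p53 and of differentiation, had 10069 and 8708 CPM in MV3 against 1353 and 1383 CPM in A-549. miR-125b-5p is made from 2 hairpins, which only the 3p arms tell apart. miR-125b-1-3p, from MIR100HG, had 670.4 and 799.7 CPM in MV3 against 50.6 and 37.4 CPM in A-549. miR-125b-2-3p, from MIR99AHG on chromosome 21, had 93.7 and 102 CPM in MV3 against 16.5 and 8.25 CPM in A-549, and its neighbour there, miR-99a-5p, had 532 and 451 CPM in MV3 against 163 and 170.3 CPM in A-549. These members of both host transcripts were thus higher in MV3, but not all were. let-7c-5p, also from MIR99AHG, was not called on both scales. let-7a-5p, which has 1 of its hairpins beside miR-100 in MIR100HG, was not called with TMM. Of 10 tested members of the miR-99, miR-100 and miR-125 families 7 were higher in MV3 (31.6% of all tested) and none in A-549, although 1 was higher in A-549 with TMM. Of the 10, 1, miR-100-3p, had reached 10 CPM in MV3 only.

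miR-221 and miR-222, which repress the cell cycle inhibitor p27 and the receptor KIT, were higher in MV3 in 4 of 4 arms (31.6% of all tested). Of these arms 1, miR-222-5p, had reached 10 CPM in MV3 only. miR-222-3p had 44646 and 45487 CPM in MV3 against 8603 and 8863 CPM in A-549 (log2 difference -2.37 ± 0.07 (SE), limma adjusted p = 5.32e-10), and miR-221-3p had 20462 and 17051 CPM in MV3 against 4146 and 4103 CPM in A-549. Their hairpins lie on chromosome X (chrX:45746157-45747124) in MIR222HG. The cluster summed to 12938 and 13225 CPM in A-549 and 66009 and 63629 CPM in MV3.

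The MYC-driven miR-17-92 cluster in MIR17HG on chromosome 13 was higher in MV3 in 8 of 10 tested miRNAs (31.6% of all tested, 50.8% on CPM alone, where it was 10 of 10), and 2 of the 10 had reached 10 CPM in MV3 only. miR-92a-3p, which is also made from a second cluster on the X chromosome, had 38638 and 41662 CPM in MV3 against 12901 and 12603 CPM in A-549, and miR-17-5p had 704 and 776 CPM in MV3 against 172 and 148 CPM in A-549. Of the paralogous miR-106a-363 cluster only 1 of 10 listed miRNAs was tested, and 8 had no reads in the 4 libraries. The third relative, miR-106b-25, in MCM7, showed 1 of 6 higher in each line.

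In 3 further lists most tested members were higher in MV3 (31.6% of all tested). For miR-29, which represses collagens, 4 of 5 tested were higher in MV3, with miR-29a-3p at 14930.5 and 15028 CPM in MV3 against 4321 and 3764 CPM in A-549. For miR-26 and miR-101 it was 5 of 5, with miR-26b-5p at 4532 and 5352 CPM in MV3 against 866 and 1073 CPM in A-549. For miR-130, miR-301 and their relatives it was 6 of 7. Of these members 1, 2 and 3 in this order had reached 10 CPM in MV3 only. The medians of the 3 lists were -1.89, -2.35 and -1.98 on CPM and -1.07, -1.53 and -1.16 with TMM, against -0.79 and 0.02 over all tested.

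**Figure D4:**
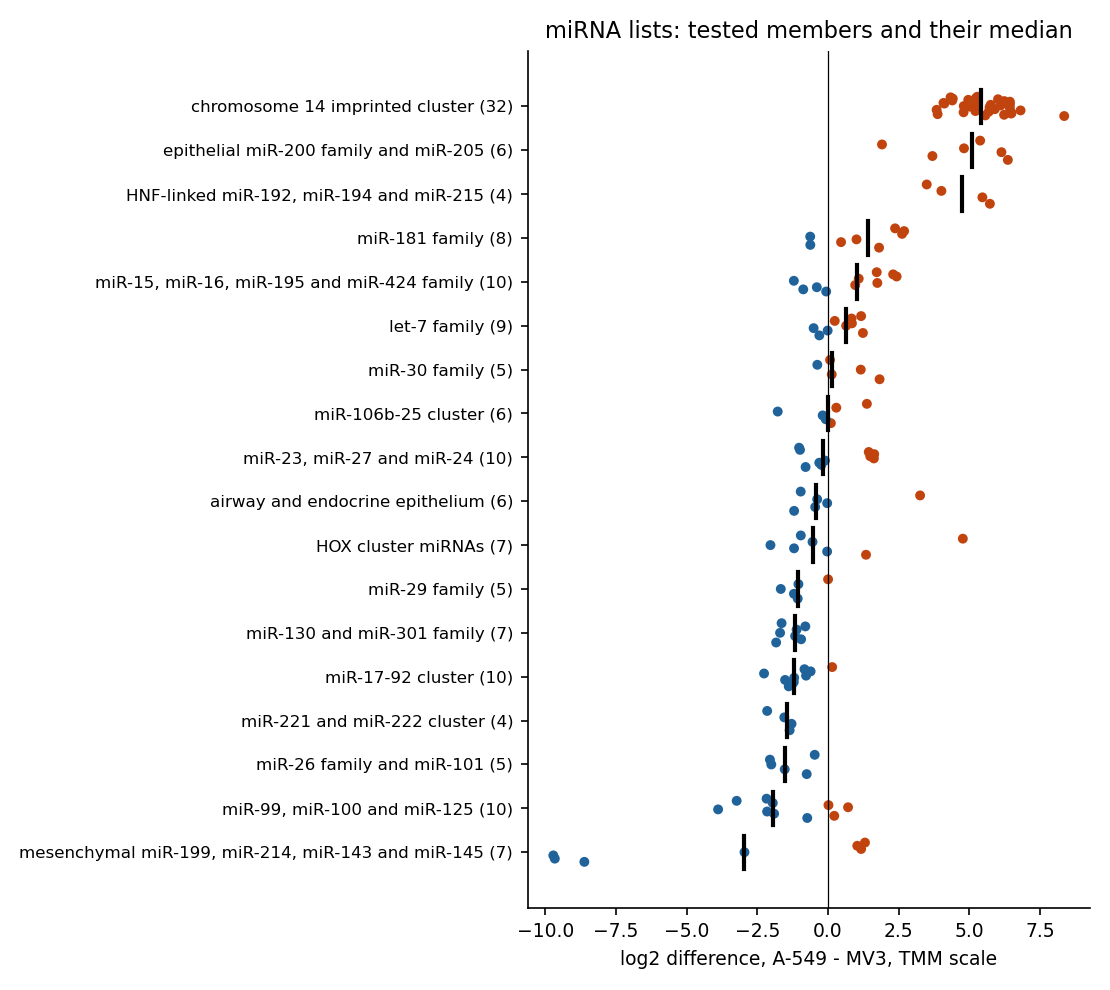
log2 difference (A-549 minus MV3, TMM scale) of the tested members of 18 lists, with the number tested in brackets; orange points lie above 0, blue points below, and the black bar is the median of a list. The chromosome 14 list, which names 32 of the 47 tested miRNAs of that region, and the miR-200 and miR-192 lists lie wholly above 0, and the miR-221, miR-130 and miR-26 lists wholly below.

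Where family members with one seed come from several loci, the loci could go apart. Seeds were read for the 351 tested miRNAs that matched RefSeq, so pairs with an unmatched member, such as miR-10a-5p and miR-10b-5p, are not in the following counts. Of 38 seeds with at least 2 tested miRNAs, 7 had members called higher in opposite lines, 9 had calls for A-549 only, 15 for MV3 only and 7 had none. miR-196b-5p, from an exon of HOXA9 on chromosome 7 (chr7:27169480-27169563), had 161 and 253 CPM in A-549 against 9.37 and 14.8 CPM in MV3 (log2 difference 3.99 ± 0.31 (SE), limma adjusted p = 1.14e-06). miR-196a-5p, from the HOXB and HOXC clusters, had 869 and 1088 CPM in MV3 against 393 and 360.1 CPM in A-549. The miR-196a-5p call was near the threshold with TMM (log2 difference -0.54, limma adjusted p = 0.0422). It was lost with DESeq2 on the whole reads (log2 difference -0.35, DESeq2 adjusted p = 0.0553). The summed seed family was 554 and 613 CPM in A-549 and 878 and 1102 CPM in MV3, with no call under TMM (limma adjusted p = 0.753). A further pair of HOX cluster miRNAs also split: miR-10a-5p, in HOXB3, had 3352 and 3584 CPM in A-549 against 2447 and 2376 CPM in MV3, and miR-10b-5p, in HOXD3, had 2767 and 2886 CPM in MV3 against 656 and 736 CPM in A-549.

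The miR-23 clusters showed the same opposition. miR-23a-3p, from chromosome 19, had 31785 and 29182 CPM in MV3 against 10295 and 9614 CPM in A-549 (log2 difference -1.61 ± 0.07 (SE), limma adjusted p = 1.74e-08). miR-23b-3p, from chromosome 9, had 7036 and 6575 CPM in A-549 against 4017 and 3787 CPM in MV3 (log2 difference 0.80 ± 0.09 (SE), limma adjusted p = 1.15e-05). miR-24-3p, which both clusters make and whose reads cannot be assigned to one, had 19919.9 and 21782 CPM in MV3 against 6249.7 and 5629.7 CPM in A-549. The seed family of miR-23 summed to 17332 and 16189 CPM in A-549 and 35802 and 32970 CPM in MV3, where TMM gave no call (limma adjusted p = 0.143).

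The let-7 family, a group of tumour suppressors that IGF2BP1 is known to counteract at its target mRNAs, depended on the scale. let-7a-5p had 100942 and 109876 CPM in MV3 against 44945 and 51642 CPM in A-549, a difference of -1.13 ± 0.09 (SE) on the CPM log2 scale and of -0.30 ± 0.18 with TMM, where it was not called (limma adjusted p = 0.16). let-7i-5p had 20500.5 and 22268 CPM in A-549 against 20699 and 21699.8 CPM in MV3, overlapping on CPM, and was higher in A-549 with TMM (limma adjusted p = 0.000375). let-7b-5p and miR-98-5p were higher in A-549 on both scales and let-7d-5p in MV3, so that 2 of 9 tested were higher in A-549 (27.2% of all tested) and 1 in MV3 (31.6%). The let-7b-5p call on CPM was lost without A-549 replicate 2 (limma adjusted p = 0.251) or MV3 replicate 1 (0.131), and under 4 other settings (0.0594 to 0.217). The miR-98-5p call was lost under 3 settings (0.0617 to 0.166). The 9 tested members and 2 more with the seed summed to 105583 and 121573 CPM in A-549 and 167064 and 180434 CPM in MV3, a log2 difference of -0.62 on CPM and 0.21 with TMM (limma adjusted p = 0.256).

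miR-423-3p, miR-25-3p and miR-181a-2-3p were the 3 miRNAs that changed direction with the scale. miR-423-3p had 6161 and 7096 CPM in MV3 against 5303 and 5571 CPM in A-549, a log2 difference of -0.28 ± 0.08 (SE, limma adjusted p = 0.0106) on CPM and of 0.54 ± 0.14 (limma adjusted p = 0.00637) with TMM. For miR-25-3p the values were -0.53 and 0.30, and for miR-181a-2-3p they were -0.36 and 0.47. The mean CPM of the 3 was 1.22- to 1.44-fold higher in MV3. These calls were not stable. With all 11 libraries in the fit, miR-423-3p (limma adjusted p = 0.127) and miR-181a-2-3p (0.154) were not called on CPM. With edgeR on the whole reads, miR-25-3p was not called (edgeR adjusted p = 0.109).

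Over 288 seed families of matched miRNAs, 86 (29.9%) were higher in A-549 and 86 (29.9%) in MV3 on both scales. On CPM alone 229 (79.5%) differed in either direction.

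The ratio of the 2 arms of a hairpin does not depend on the scaling of a library. Of 79 hairpins with at least 50 CPM over both arms in both lines, and at least 5 reads on the weaker arm in one of them, 6 (7.59%) differed in the ratio of 5p to 3p reads. miR-99b-5p made up 95.9% and 95.3% of the reads of both arms in A-549 and 82.7% and 83.7% in MV3 (log2 ratio difference 2.13 ± 0.28 (SE), limma adjusted p = 0.0317). miR-181a-5p made up 98.4% and 97.7% of its reads together with miR-181a-3p in A-549 and 87.8% and 92.5% in MV3. miR-181a-3p comes from only 1 of the 2 hairpins of miR-181a-5p. The 3p arm of the other, miR-181a-2-3p, had 1522 and 1204 reads in A-549 and 911 and 1094 in MV3. It had far more reads than miR-181a-3p and was left out, so these values are not the 5p share over both hairpins. The 5p arm of miR-365a made up 25.8% and 24.5% of the reads of both arms in A-549 and 6.80% and 5.04% in MV3, and its 3p arm cannot be told from that of miR-365b. miR-10a and let-7c, with 98.5% to 99.9% of reads on the 5p arm, also had relatively more 5p in A-549, but for let-7c this rested on 2 and 1 reads of the 3p arm in A-549 and 13 and 19 in MV3. miR-501 had relatively less, with 4.40% and 2.59% of the reads of both arms in A-549 and 12.2% and 19.3% in MV3, on 74 to 182 reads a library. Over the 79 hairpins the 5p arm was relatively higher in A-549 in 60, with a median log2 ratio difference of 0.39. None of the 6 was called when any of the 4 A-549 and MV3 libraries was left out, and without A-549 replicate 2 the only call was another hairpin, miR-185.

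The remaining lists are read against the shares of all tested, 27.2% higher in A-549 and 31.6% higher in MV3. Of the miR-30 family 2 of 5 tested were higher in A-549 and 1 in MV3. The list of miR-15, miR-16 and miR-424 with their relatives also holds miR-503, miR-450a, miR-450b and miR-542. Of this list 4 of 10 were higher in A-549 and 3 in MV3. Of the 6 members that share the seed of miR-16-5p, 1 was higher in A-549 and 3 in MV3. Of the miR-181 family 2 of 8 were higher in A-549 and 0 in MV3 on both scales, whereas with TMM alone 6 of 8 were higher in A-549 and 0 in MV3 (36.3% and 31.6% of all tested). Of miR-148 and miR-152 2 of 3 were higher in MV3, and of 6 miRNAs of airway and endocrine epithelium 1 in MV3. miR-186-5p, which the study names among miRNAs with many predicted targets, had 1051 and 1031 CPM in MV3 against 309 and 293 CPM in A-549 and was higher in MV3.

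Markers of other cell types were uneven. Of 7 lists, those of placenta, stem cells, blood and muscle had no tested miRNA. The placental list gave 0 reads in the 4 libraries, the stem cell list 1 read, the blood list 4 reads, all in A-549 replicate 2, and the muscle list 2 to 14 reads a library. The neuronal list summed to 1207 and 1415 CPM in A-549 and 4743 and 4349 CPM in MV3, mostly miR-128-3p, miR-218-5p and miR-9-5p, with miR-124-3p at or near 0. The endothelial list, the 2 arms of miR-126, summed to 219 and 231 CPM in A-549 and 26.4 and 44.5 CPM in MV3. Here 2 of 2 were higher in A-549 (27.2% of all tested), of which 1, miR-126-5p, had reached 10 CPM in A-549 only. The liver list held 1 tested miRNA, miR-122-5p, which was higher in MV3 and had reached 10 CPM in MV3 only. The part of these lists in the other differences was not tested.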

How the data were processed

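Parental A-549 and MV3 cells were profiled by small RNA sequencing, with 2 libraries each. The submitters' processing notes list cutadapt 1.14, Bowtie2 2.3.2, SAMtools 1.5, featureCounts 1.5.3, edgeR 3.30.3 and hg38, and how reads with several genomic matches were counted is not given in the sources used here. The deposited A-549, MV3 and ES-2 values are a signal, namely CPM that the authors had divided by scaling factors within each table; the PANC-1 table, as deposited, holds plain CPM. In each library the values were whole multiples of the smallest step (100% within 0.01), which gave back whole reads. These were summed over the 2813 rows to 2588 mature names and rescaled per library, since the tables had been scaled separately. Names that occur at several loci (167) thus hold the sum over all copies.

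The test was limma 3.58.1 on log2(CPM + 1) with a mean-variance trend, over A-549, ES-2 and MV3 (6 libraries), two-sided, with Benjamini-Hochberg adjustment over 386 miRNAs. ES-2 entered to estimate the spread and the TMM factors. These factors came from edgeR 4.0.16 over the same 6 libraries. With 2 libraries against 2, an exact permutation test cannot go below p = 0.333, so single values were not tested alone. Arm ratios were log2((5p reads + 0.5)/(3p reads + 0.5)) in the same model without a trend, and seed families were sums of CPM over RefSeq-matched names with the same bases 2 to 8. The replicate libraries of a line differed by more than counting error (chi-square per degree of freedom 15.6 in A-549 and 13.4 in MV3), so none was a copy of the other. The scripts were tested on simulated data.

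Named were the 5 most abundant miRNAs of each line, the 12 with the largest difference in each direction among those called on both scales with at least 100 CPM in the higher line and no overlap, list members with at least 100 CPM, called arm ratios and calls that turned with the scale. Lower list members were named after their values were seen. The members and lists were chosen with earlier results of these data known. Names were matched to RefSeq for 351 of the 386 miRNAs, and host genes came from GENCODE 44.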

Additional observations from a re-analysis of the deposited data

How the results depend on the processing

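The scale changed the balance of the calls. The 196 miRNAs higher in MV3 became 122 with TMM, 117 with miR-21-5p left out of the totals, 119 with edgeR and 101 with DESeq2 on the whole reads, where those higher in A-549 numbered 140, 145, 141 and 148. The share of calls higher in A-549 was thereby 53.4%, 55.3%, 54.2% and 59.4%, against 34.9% on CPM, and the median log2 difference was 0.02, 0.12, 0.02 and 0.22 against -0.79. Quantile normalization gave 122 and 171, with a median of -0.50, and sets miR-21-5p, which is first in every library, to no difference by its construction. Requiring 100 CPM tested 194 miRNAs and called 166, of which 53 were higher in A-549 and 113 in MV3. With the highest genomic copy in place of the sum, the miR-21-5p share was 68.8% in A-549 and 38.04% in MV3.

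Leaving out 1 library at a time gave 248 to 308 calls, 85 to 108 higher in A-549 and 163 to 200 in MV3, and 192 to 232 seed families. Called arm ratios ranged from 0 to 7 with 1 library left out, and numbered 15 with 5 reads added per arm. Where a line kept 1 library, that library was assumed to vary like the others. The labels number the libraries of each line alike, but same-numbered libraries did not deviate together (r = -0.01 between A-549 and MV3, -0.07 between A-549 and ES-2 and 0.01 between ES-2 and MV3). With the replicate block 305 miRNAs were called, and 0 arm ratios.

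With all 11 libraries in the fit 285 miRNAs were called, but 10 of the named differences lost their call, at adjusted p of 0.0716 to 0.454, among them miR-30a-5p, miR-27b-3p, miR-31-5p, let-7b-5p, miR-98-5p and miR-10a-5p. Reversals were limited to 5 of the named miRNAs. With TMM, quantile normalization, miR-21-5p left out, edgeR and DESeq2, in this order, miR-423-3p had log2 differences of 0.54, 0.46, 0.65, 0.53 and 0.74, miR-25-3p of 0.30, 0.46, 0.40, 0.30 and 0.49, and miR-181a-2-3p of 0.47, 0.43, 0.57, 0.47 and 0.66. let-7i-5p and let-7f-5p, which did not differ on CPM, were at -0.12 and -0.11 with the highest copy, and between -0.048 and 0.071 and between -0.096 and 0.146 with 1 library left out. Depth limits the lowest values, where 3 reads were 1.12 to 2.56 CPM.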
